A study of Homo sapiens with 6 samples.

Results

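The insulin-like growth factor (IGF) family was followed in MDAMB468 cells in which a transcriptional activator had been directed to the gene of a single member, IGFBP2. The family was taken as 10 genes chosen by their symbols, namely 5 IGF binding proteins (IGFBP2, IGFBP3, IGFBP4, IGFBP5 and IGFBP6), 3 receptors (IGF1R, INSR and IGF2R) and the receptor substrates IRS1 and IRS2. All 10 were among the 10487 genes of the deposited table, in which a gene was kept when its mean exceeded 5 CPM (reads of the gene scaled to a common library total) in at least 1 of the conditions. IGFBP6 passed that filter through the overexpression libraries alone. The family was picked with earlier results of the same comparison known, and therefore the values of its members, p-values included, are given as a description and not as independent evidence.

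MDAMB468 (MDA-MB-468) is a human triple negative breast cancer line. The overexpression group, MDAMB468-VHP-IGFBP2, consisted of MDAMB468 cells that stably carried an enzymatically dead Cas9 joined to a transcriptional activator under blasticidin selection. They then received a guide RNA against IGFBP2 on a second lentivirus, were selected again and were sorted by the fluorescent marker of that virus. The control group was MDAMB468 with the genotype given as WT, and whether these cells carried the activator or an empty guide is not given in the sources used here, so that activator, selection, sorting and IGFBP2 itself cannot be told apart. No afatinib treatment of either group is described in the sources used here, whereas antibiotic selection is described for the overexpression cells. Each group had 3 biological replicates, sequenced from the 3′ end of the transcripts to 2497353 to 4579587 reads on the listed genes. Such reads depend little on transcript length, so levels were set side by side between genes in CPM without division by length. Whether different transcripts were captured equally well was not tested. All 11 markers of the line, EGFR and epithelial and keratin genes, were listed. Their summed levels were 5835 to 7222 CPM in control and 6201 to 7311 CPM in overexpression libraries, with KRT19 as the largest part. A sum does not show single genes. KRT7 and CLDN4, named after their values were seen, were lower in every overexpression library than in any control library, and the other markers overlapped. Of all genes, 18.0% did not overlap between the groups in either direction, and nothing is read from KRT7 and CLDN4. Of the other cell types, 1 of 6 fibroblast markers was listed (COL1A1, 12.2 to 27.5 CPM in control and 9.36 to 15.8 CPM in overexpression libraries), and 0 of 5 leukocyte and 0 of 3 endothelial markers were. Of the receptors that define triple negative cells by their absence, ESR1 and PGR were not listed and ERBB2 was at 15.8 to 37.0 CPM in control and 16.8 to 24.0 CPM in overexpression libraries. In such bulk libraries fewer cells that express a gene and less RNA per cell cannot be told apart.

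IGF1 and IGF2 are secreted hormones that signal through the tyrosine kinase IGF1R and, for IGF2, through INSR as well. The secreted binding proteins hold the IGFs outside the cell, extend their lifetime and either keep them from the receptor or hand them over after proteolysis, and several of them also bind integrins, proteoglycans or the matrix. IGF2R has no kinase and carries IGF2 to the lysosome, while IRS1 and IRS2 are docking proteins that couple activated IGF1R and INSR to PI3K.

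The promoters of the genes that differed between the groups are shown because the activator is brought to a promoter and because IGFBP2 and IGFBP5 are neighbours. They are RefSeq windows on GRCh38.p14 from 250 bases before to 50 bases after a transcription start, and all 10 genes had at least 1 such window. IGFBP2 had 3 annotated starts, of which the first coincided with the GENCODE gene start and the second lay 592 bases downstream. The guide sequence was not used here, so which start it addressed cannot be given. Capitals mark matches to GGGCGG (the GC box bound by Sp1-type factors) or TATAAA on either strand, with overlapping matches allowed.
IGFBP2, first start, chr2:216632578-216632877, plus strand: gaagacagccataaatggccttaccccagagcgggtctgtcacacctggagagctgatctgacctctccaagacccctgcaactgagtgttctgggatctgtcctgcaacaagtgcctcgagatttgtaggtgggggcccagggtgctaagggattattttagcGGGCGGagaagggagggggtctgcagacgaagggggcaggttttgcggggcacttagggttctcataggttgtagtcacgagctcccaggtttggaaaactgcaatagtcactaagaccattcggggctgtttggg
IGFBP2, second start, chr2:216633170-216633469, plus strand: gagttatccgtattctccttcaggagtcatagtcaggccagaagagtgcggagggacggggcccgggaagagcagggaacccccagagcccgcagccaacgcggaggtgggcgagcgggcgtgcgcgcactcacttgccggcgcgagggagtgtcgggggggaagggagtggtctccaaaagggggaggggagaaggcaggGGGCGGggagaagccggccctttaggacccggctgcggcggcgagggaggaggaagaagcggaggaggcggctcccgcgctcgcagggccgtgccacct
IGFBP3, chr7:45921223-45921522, minus strand: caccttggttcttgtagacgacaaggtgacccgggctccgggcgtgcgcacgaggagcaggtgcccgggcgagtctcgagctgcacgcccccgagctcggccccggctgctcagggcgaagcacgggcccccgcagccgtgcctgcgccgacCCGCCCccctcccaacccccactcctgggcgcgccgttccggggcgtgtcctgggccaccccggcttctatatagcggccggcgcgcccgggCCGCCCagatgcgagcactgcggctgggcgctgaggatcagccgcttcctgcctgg
IGFBP5, chr2:216695500-216695799, minus strand: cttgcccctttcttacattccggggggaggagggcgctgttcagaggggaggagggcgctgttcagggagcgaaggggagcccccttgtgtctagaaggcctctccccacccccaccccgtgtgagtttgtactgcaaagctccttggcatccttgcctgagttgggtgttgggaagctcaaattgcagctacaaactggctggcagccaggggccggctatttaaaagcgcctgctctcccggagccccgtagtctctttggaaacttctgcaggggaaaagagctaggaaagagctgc

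The printed windows differed in base composition. The first IGFBP2 window held 55.3% G and C with 8 CpG dinucleotides, and the second held 70.0% with 28. The IGFBP3 window held 74.7% with 36 CpG, and the IGFBP5 window 59.0% with 9 CpG, while the median over 35116 RefSeq windows of the same length was 58.7% with 14 CpG. A GC box was found once in each printed IGFBP2 window, at 2 places in IGFBP3 and at none in IGFBP5, against 45.0% of all windows with at least 1 match. TATAAA was absent from all 4 printed windows, and 1 of the 12 windows of the family, that of IGFBP4, held it, against 11.5% of all windows. The receptor and substrate promoters were all richer in G and C, from 75.7% in IRS2 to 79.7% in IGF1R, with 36 to 55 CpG.

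IGFBP2, IGFBP3 and IGFBP5 differed between the groups, and the other 7 genes did not pass the threshold. Across all genes, 0.629% passed an adjusted p of 0.05 (limma with Benjamini-Hochberg adjustment over the 10487 genes), made up of 0.429% higher and 0.200% lower in overexpression cells. Of the family, 2 of 10 were called higher and 1 lower, the same 3 genes with limma voom on the recovered reads. The libraries of one group lay entirely above or below those of the other in 5 of the 10, 3 above and 2 below, against 18.0% of all genes. The median log2 difference, overexpression minus control on the log2(CPM + 1) scale, was 0.55 over the 10 genes and 9.8e-05 over all genes. These shares belong to the comparison with which the family was picked, and nothing is read from them.

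**Figure D1:**
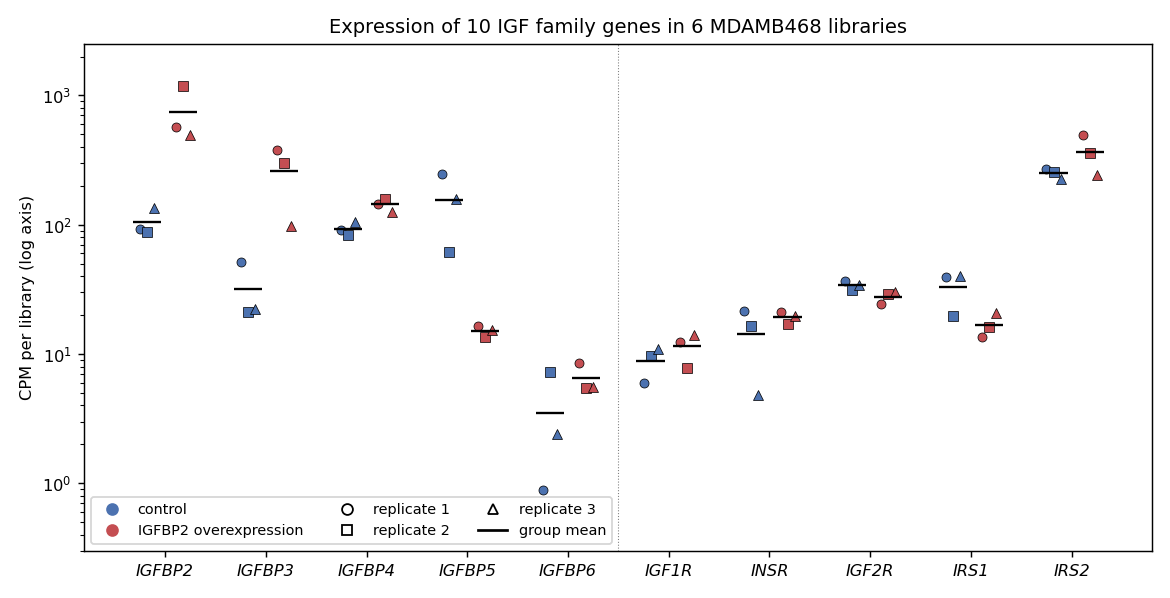
CPM of each of the 10 genes (log axis) in the 3 control (blue) and 3 IGFBP2 overexpression (red) libraries of MDAMB468 cells, with symbols for the replicate and a bar for the group mean. The groups do not overlap for IGFBP2, IGFBP3, IGFBP4, IGFBP5 and IGF2R. For IGFBP3 the highest control library is at 51.3 CPM and the lowest overexpression library at 98.5 CPM. IGFBP6 overlaps, as do IGF1R, INSR and the IRS genes to the right of the dotted line.

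IGFBP2 (ENSG00000115457, chromosome 2, 216632828 to 216664436, plus strand, GENCODE 44 on GRCh38) was the target of the activator. Per library the recovered reads were 421, 314 and 336 in control replicates 1, 2 and 3, and 1453, 3642 and 1517 in overexpression replicates 1, 2 and 3. Replicate 2 thus reached 1176 CPM where replicates 1 and 3 stayed at 566 and 498 CPM, and every overexpression library was above every control library. The mean was 7.07-fold higher in overexpression cells, with an interval of the log2 difference from 1.97 to 3.49 (adjusted p = 0.0148, limma). Between overexpression libraries the coefficient of variation was 49.9%, against 2.14% expected from read counting alone. In control cells IGFBP2 already ranked 1824 by mean level, above 82.6% of the listed genes, and in overexpression cells it ranked 157, above 98.5%.

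IGFBP3 (ENSG00000146674, chromosome 7, 45912245 to 45921874, minus strand), the main IGF carrier of serum, was also higher. Control replicates 1, 2 and 3 stood at 51.3, 21.1 and 22.2 CPM, whereas overexpression replicates 1, 2 and 3 stood at 381, 299 and 98.5 CPM. The groups did not overlap, but overexpression replicate 3 lay well below the other 2 libraries of its group. The mean rose from 31.6 ± 17.1 to 260 ± 145 CPM (SD, n = 3), an 8.23-fold difference, with a log2 difference of 2.91 (SE 0.51, 95% interval 1.75 to 4.07, adjusted p = 0.0490, limma). The order of the overexpression libraries was not that of IGFBP2, which was highest in replicate 2 where IGFBP3 was highest in replicate 1. The call was lost without overexpression replicate 1 (2.53, adjusted p = 0.157, limma), overexpression replicate 2 (2.70, adjusted p = 0.189), control replicate 2 (2.69, adjusted p = 0.120) or control replicate 3 (2.73, adjusted p = 0.147), over a range of adjusted p from 0.00122 to 0.189 in 15 alternatives.

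IGFBP5 (ENSG00000115461, chromosome 2, 216672105 to 216695549, minus strand), a matrix-binding member, went the other way. It was measured at 249, 61.2 and 158 CPM across control replicates 1, 2 and 3, against 16.4, 13.6 and 15.4 CPM across overexpression replicates 1, 2 and 3. The lowest control library was still well above the highest overexpression library. The mean fell from 156 ± 93.8 to 15.1 ± 1.43 CPM (SD, n = 3), 10.3-fold higher in control cells, with a log2 difference of -3.07 (SE 0.43, 95% interval -4.05 to -2.09, adjusted p = 0.0243, limma). The spread was in the control group, with a coefficient of variation of 60.2% against 4.32% from counting, while the overexpression libraries varied by 9.48% against 15.2% from counting, on 42, 42 and 47 reads. IGFBP5 went from rank 1196 to rank 7453 of the listed genes. Without overexpression replicate 1, 2 or 3 or control replicate 3 it no longer passed (adjusted p = 0.0691, 0.117, 0.0743 and 0.0897, limma), and over 15 alternatives the adjusted p lay between 0.000244 and 0.117.

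IGFBP2 and IGFBP5 lie tail to tail on chromosome 2. They are transcribed towards each other, and 7668 bases separate their 3′ ends, a gap in which GENCODE 44 has 0 genes. The listed gene on the far side of IGFBP2, RPL37A (a ribosomal protein), lay 53647 bases away and had a log2 difference of -0.16 (adjusted p = 0.765, limma). On the far side of IGFBP5, the listed gene TNS1 (a focal adhesion protein) lay 1104038 bases away, with a log2 difference of 0.13 (adjusted p = 0.940, limma). Neither neighbour passed the threshold. A long noncoding RNA gene on the opposite strand, DIRC3-AS1, overlaps IGFBP5 and was not in the table. The strand setting of the counting is not given in the sources used here. Whether reads of the 2 genes were kept apart is therefore not known.

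IGFBP4 (ENSG00000141753, chromosome 17, 40443450 to 40457725, plus strand), a binding protein that holds IGFs back until it is cleaved, was at 91.0, 82.6 and 106 CPM in control replicates 1, 2 and 3. It was at 145, 159 and 126 CPM in overexpression replicates 1, 2 and 3. All overexpression libraries were above all control libraries, at means of 93.1 ± 11.6 and 143 ± 16.7 CPM (SD, n = 3), but the log2 difference of 0.62 (SE 0.19, 95% interval 0.19 to 1.05) did not pass the threshold (adjusted p = 0.231, limma).

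IGFBP6 (ENSG00000167779, chromosome 12, 53097436 to 53102345, plus strand), which prefers IGF2 to IGF1, was the lowest of the 10. It had 4, 26 and 6 reads in control replicates 1, 2 and 3 and 22, 17 and 17 reads in overexpression replicates 1, 2 and 3, or 0.888 to 7.23 and 5.49 to 8.58 CPM. The groups overlapped through control replicate 2, and the log2 difference of 0.98 (SE 0.46, 95% interval -0.07 to 2.03) had an adjusted p of 0.413 in limma. The coefficient of variation between control libraries was 94.1%, against 29.3% from counting. With a library left out the log2 difference lay between 0.48 (without control replicate 1) and 1.55 (without control replicate 2, adjusted p = 0.0954, limma).

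**Figure D2:**
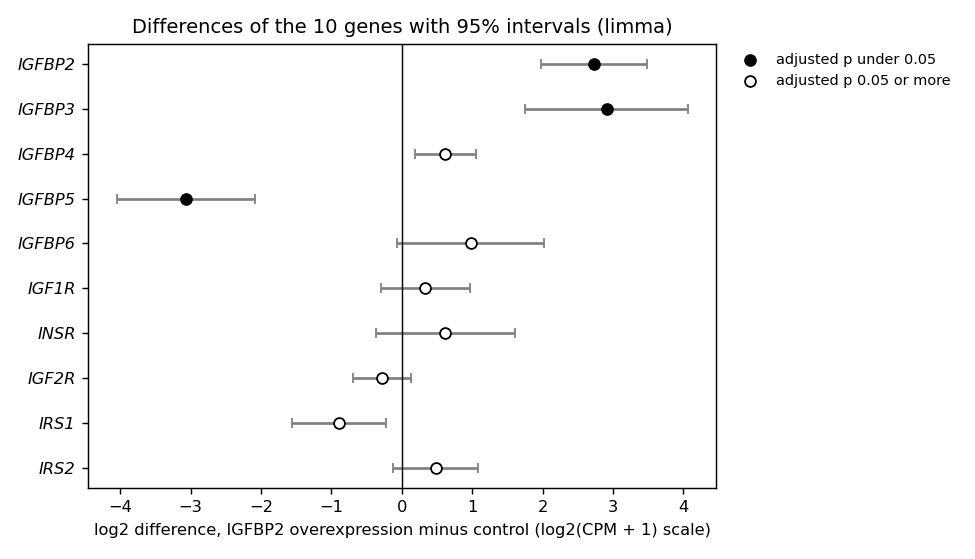
Log2 difference of each gene, IGFBP2 overexpression minus control on the log2(CPM + 1) scale, with its 95% interval from limma over 3 libraries a group; filled points passed an adjusted p of 0.05. The intervals of IGFBP2 and IGFBP3 start at 1.97 and 1.75 and that of IGFBP5 ends at -2.09, while IGFBP4 and IRS1 have intervals off 0 but did not pass after adjustment over all genes.

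The binding proteins were then set against each other inside each library, which removes the library's depth. In control cells the leading binding protein mRNA differed between libraries. IGFBP5 held 51.3% of the binding protein reads in control replicate 1 (Wilson 95% interval 49.2 to 53.3, on 2187 reads) and 37.2% in replicate 3 (34.3 to 40.2, on 1048 reads). In replicate 2, with 933 reads, IGFBP5 held 23.6% (21.0 to 26.4), behind IGFBP2 with 33.7% and IGFBP4 with 31.8%. These intervals cover counting error alone and do not overlap between the control libraries for IGFBP5.

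In overexpression cells IGFBP2 led in every library, with 50.7%, 71.1% and 67.0% of the binding protein reads in replicates 1, 2 and 3. The mean share of IGFBP2 was 28.3 ± 7.90% in control and 62.9 ± 10.8% in overexpression libraries (SD, n = 3). IGFBP3 was second in replicates 1 and 2, with 34.1% and 18.1%, and IGFBP4 in replicate 3, with 16.9% against 13.3% for IGFBP3. The share of IGFBP5 was 1.46%, 0.820% and 2.08% in overexpression replicates 1, 2 and 3.

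The summed level of the 5 genes stood at 486, 260 and 424 CPM across control replicates 1, 2 and 3 and at 1118, 1653 and 744 CPM in overexpression replicates 1, 2 and 3. The means were 390 ± 117 and 1172 ± 457 CPM (SD, n = 3), a ratio of 3.01, and the groups did not overlap. Without IGFBP2 itself the sums were 392, 172 and 288 CPM in control and 552, 477 and 245 CPM in overexpression replicates 1, 2 and 3, and the groups overlapped. The share of IGFBP4 went from 25.2% to 13.2% although its CPM were higher in every overexpression library, since a share moves with the other genes in the sum.

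**Figure D3:**
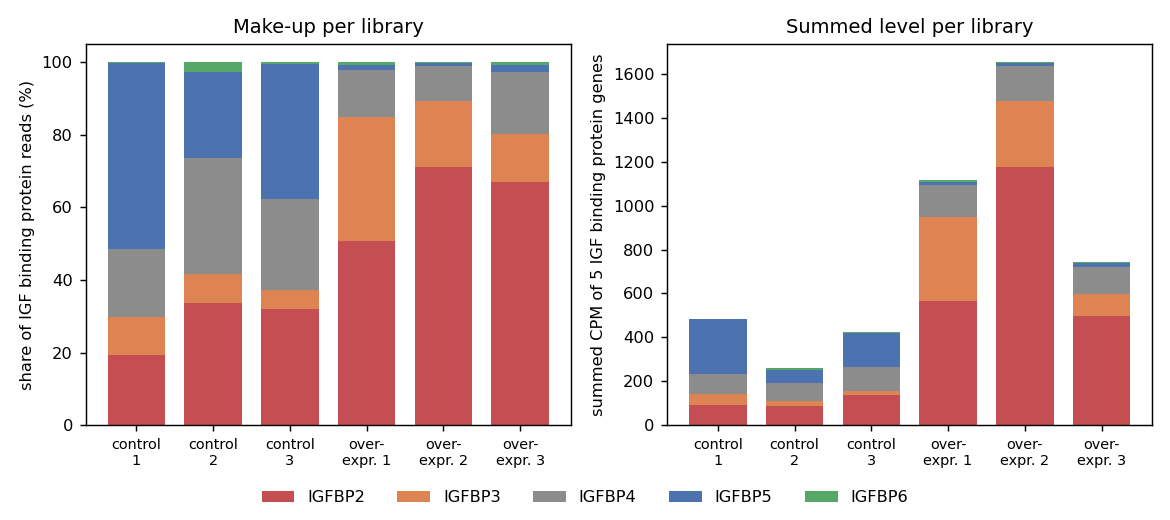
Left, share (%) of the reads on 5 IGF binding protein genes that each gene held in each library; right, their summed CPM, stacked by gene. IGFBP5 (blue) holds 23.6 to 51.3% in the control libraries and at most 2.08% in the overexpression libraries, and the summed level is 260 to 486 CPM in control and 744 to 1653 CPM in overexpression libraries.

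The receptor mRNAs did not pass the threshold in either direction, and receptor activity was not measured. IGF1R (ENSG00000140443, chromosome 15, 98648539 to 98964530, plus strand), the signalling receptor of both IGFs, was at 5.99, 9.74 and 10.9 CPM across control replicates 1, 2 and 3 and at 12.5, 7.75 and 14.1 CPM in overexpression replicates 1, 2 and 3. These values rest on 24 to 43 reads per library, with a coefficient of variation from counting of 18.9% in control and 17.5% in overexpression libraries. The groups overlapped, and the log2 difference was 0.33 (SE 0.28, 95% interval -0.30 to 0.97, adjusted p = 0.680, limma). It lay between 0.10 (without control replicate 1) and 0.57 (without overexpression replicate 2) with a library left out.

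INSR (ENSG00000171105, chromosome 19, 7112255 to 7294414, minus strand), the insulin receptor, was at 21.5, 16.4 and 4.85 CPM across control replicates 1, 2 and 3 and at 21.1, 17.1 and 19.7 CPM in overexpression replicates 1, 2 and 3. Control replicate 3, with 12 reads, was the lowest library by far, and the other 2 control libraries lay just above and just below the overexpression range. The log2 difference was 0.62 (SE 0.44, 95% interval -0.37 to 1.60, adjusted p = 0.605, limma) with that library and 0.03 without it.

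IGF2R (ENSG00000197081, chromosome 6, 159969082 to 160113507, plus strand), the clearance receptor of IGF2, was at 36.6, 31.2 and 34.0 CPM across control replicates 1, 2 and 3 and at 24.2, 29.1 and 30.2 CPM in overexpression replicates 1, 2 and 3. Every overexpression library was below every control library; the closest were control replicate 2 and overexpression replicate 3. The log2 difference was -0.28 (SE 0.18, 95% interval -0.70 to 0.14, adjusted p = 0.571, limma), and -0.19 without overexpression replicate 1.

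Within a library, IGF2R exceeded IGF1R in all 6, by 3.11 to 6.11 times in control and 1.94 to 3.75 times in overexpression libraries. IGF1R stood at 0.278, 0.593 and 2.25 times INSR in control replicates 1, 2 and 3 and at 0.593, 0.453 and 0.717 times INSR in overexpression replicates 1, 2 and 3. INSR was therefore above IGF1R in every library other than control replicate 3. GENCODE 44 places 5 further genes over IGF1R, 3 of them on the opposite strand, and 2 over IGF2R, the pseudogene CHP1P2 on the same strand and AIRN on the opposite strand. A further gene, ENSG00000275741, lies on the strand opposite IRS2. None of these was in the table. How reads in the shared stretches were counted is not given in the sources used here. Whether any were assigned to the family members is therefore not known.

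The receptor substrates had differences of opposite sign, and neither passed the threshold. IRS1 (ENSG00000169047, chromosome 2, 226731312 to 226799820, minus strand) was at 39.5, 19.7 and 40.4 CPM across control replicates 1, 2 and 3 and at 13.6, 16.1 and 20.7 CPM in overexpression replicates 1, 2 and 3. The groups overlapped through control replicate 2 alone, and the log2 difference was -0.89 (SE 0.30, 95% interval -1.56 to -0.22, adjusted p = 0.260, limma). IRS2 (ENSG00000185950, chromosome 13, 109752695 to 109786583, minus strand) was at 271, 256 and 227 CPM across control replicates 1, 2 and 3 and at 497, 358 and 241 CPM in overexpression replicates 1, 2 and 3. It was above the control range in overexpression replicates 1 and 2 and inside it in replicate 3, with a log2 difference of 0.48 (SE 0.27, 95% interval -0.12 to 1.08, adjusted p = 0.488, limma). With a library left out it lay between 0.23 (without overexpression replicate 1) and 0.75 (without overexpression replicate 3).

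IRS2 exceeded IRS1 in every library. The ratio was 6.87, 12.9 and 5.61 in control replicates 1, 2 and 3 and 36.4, 22.2 and 11.7 in overexpression replicates 1, 2 and 3. The means were 8.47 ± 3.92 and 23.4 ± 12.4 (SD, n = 3), and control replicate 2 lay above overexpression replicate 3.

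By mean CPM the order in control cells was IRS2, IGFBP5, IGFBP2, IGFBP4, IGF2R, IRS1, IGFBP3, INSR, IGF1R and IGFBP6. Of these neighbours, IGFBP4 (82.6 to 106 CPM) and IGF2R (31.2 to 36.6 CPM) had ranges that did not overlap, and every other pair of neighbours overlapped. In overexpression cells the order was IGFBP2, IRS2, IGFBP3, IGFBP4, IGF2R, INSR, IRS1, IGFBP5, IGF1R and IGFBP6. There the ranges were apart between IGFBP2 and IRS2, between IGFBP4 and IGF2R and between IGF2R and INSR.

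The genes around the family were read from lists by role, which were drawn up with earlier results of these data known. Of all 10487 genes, 66 (0.629%) were called by limma and 141 by limma voom. Beside that share, 0 called genes in a list of this size is not read as a result. Of 9 ligand genes of the IGF and insulin type, 0 were in the table, so neither IGF1 nor IGF2 passed the filter on CPM. Of the 9 binding protein genes searched, IGFBP1, IGFBP7, IGFBPL1 and IGFALS were not listed, and of the 4 receptors INSRR was not.

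Among 25 proteases known to cut IGF binding proteins and their regulators, 10 were listed and 1 was called, against 0.629% of all genes. It was MMP7, a secreted matrix metalloproteinase. MMP7 was at 5.33, 13.4 and 3.64 CPM across control replicates 1, 2 and 3 and at 106, 105 and 75.6 CPM in overexpression replicates 1, 2 and 3. All overexpression libraries were far above the control libraries, with a log2 difference of 3.67 (SE 0.38, adjusted p = 0.00907, limma). The list had a median log2 difference of 0.76, against 9.8e-05 over all genes, and its lowest value was that of CTSD, a lysosomal protease (-0.28, adjusted p = 0.654, limma), which was also its most abundant gene at 286 ± 68.2 CPM in control and 232 ± 24.2 CPM in overexpression cells (SD, n = 3). At an unadjusted p under 0.05, 4 of the 10 were higher and 0 lower. That level was reached by 13.0% of all genes, 722 higher and 642 lower. Besides MMP7 the 4 were CTSL, FURIN and MMP2, named after their values were seen. The list was drawn up with earlier results known, and nothing is read from its median or from this count. PAPPA and PAPPA2 were not listed.

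Of 29 receptor substrates and adaptors, 25 were listed and 0 were called by limma or limma voom, with a median log2 difference of -0.16. At an unadjusted p under 0.05, which 13.0% of all genes reached, 2 were higher and 3 lower. Those 5 genes, named after their values were seen, were SOCS3 and SOCS6 above and IRS1, GAB2 and GRB10 below. SOCS3, a feedback inhibitor of cytokine and insulin receptors, had the highest log2 difference of the list (1.12, SE 0.36, adjusted p = 0.246, limma). It was at 10.9, 18.4 and 5.66 CPM across control replicates 1, 2 and 3 and at 21.1, 21.3 and 30.9 CPM in overexpression replicates 1, 2 and 3, without overlap. IRS1 was the lowest, and RACK1, a ribosome-bound scaffold, the most abundant, with a log2 difference of -0.09 (adjusted p = 0.888, limma).

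All 16 genes of the proximal PI3K arm were listed and 0 were called by limma or limma voom, with a median of -0.09. At an unadjusted p under 0.05, reached by 13.0% of all genes, 2 were higher and 2 lower. The 4 genes, named after their values were seen, were RHEB and PHLPP2 above and TSC1 and TSC2 below. RHEB, the GTPase that activates mTORC1, was at 61.3, 54.2 and 61.9 CPM across control replicates 1, 2 and 3 and at 90.4, 87.2 and 93.6 CPM in overexpression replicates 1, 2 and 3. TSC2, the subunit that holds RHEB inactive, had the lowest log2 difference (-0.53, SE 0.23, adjusted p = 0.374, limma). PHLPP2, an AKT phosphatase, had the highest, at means of 3.87 and 6.83 CPM in control and overexpression cells. It passed the filter on CPM through the overexpression libraries alone, and nothing is read from its direction or from its place in the count. AKT2, the most abundant, stood at 389 ± 84.6 CPM in control and 377 ± 48.5 CPM in overexpression cells (SD, n = 3).

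Of 13 cell surface partners of the binding proteins, 8 were listed and 0 were called by limma or limma voom. At an unadjusted p under 0.05, 3 of the 8 were higher and 0 lower, where 722 of all 10487 genes were higher and 642 lower. The 3 were TGFBR1, TGFBR2 and ITGAV, named after their values were seen. TGFBR2, a receptor of TGF-beta to which IGFBP3 has been linked, had the highest log2 difference, from 3.34 to 5.66 CPM in control and 8.07 to 11.5 CPM in overexpression libraries. With a control mean of 4.78 CPM it also passed the filter through the overexpression libraries alone, and nothing is read from its direction or from its place in the count. TMEM219, described as a death receptor for IGFBP3, had the lowest (-0.21, adjusted p = 0.732, limma), and CAV1, the caveolae protein, was the most abundant (0.17, adjusted p = 0.845).

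All 19 genes of mannose 6-phosphate and retromer sorting, the route that IGF2R travels, were listed and 0 were called by limma or limma voom, with a median log2 difference of 0.06. At an unadjusted p under 0.05, which 13.0% of all genes reached, there was 1 higher and 1 lower. They were M6PR and GGA1, the latter named after its values were seen. M6PR, the smaller mannose 6-phosphate receptor, had the highest log2 difference (0.50, SE 0.18, adjusted p = 0.289, limma). It lay at 40.9 to 49.7 CPM in control and 62.4 to 67.7 CPM in overexpression libraries, the opposite direction to IGF2R, and neither passed the threshold. GNPTAB, which makes the mannose 6-phosphate tag, had the lowest (-0.50, adjusted p = 0.495), and VPS35, the core of the retromer, was the most abundant (-0.04, adjusted p = 0.948).

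Of 3 IGF2 mRNA binding proteins, 2 were listed, IGF2BP2 with a log2 difference of -0.07 (adjusted p = 0.929, limma) and IGF2BP3 with -0.22 (adjusted p = 0.735), and 0 passed by limma, by limma voom or at an unadjusted p under 0.05. Of 20 FOXO factors and textbook FOXO targets, a set to which INSR and IRS2 belong, 14 were listed and 0 were called by limma or limma voom. The mRNA levels of this mixed set do not measure IGF signalling. Here 1 was higher and 1 lower at an unadjusted p under 0.05, against 13.0% of all genes in either direction. They were BCL2L11 and BCL6, the former named after its values were seen. BCL6, a transcriptional repressor, had the lowest log2 difference of the set, at 5.77, 7.79 and 4.45 CPM in the control libraries and 2.34, 4.20 and 1.31 CPM in the overexpression libraries. It passed the filter through the control libraries alone, and nothing is read from its direction or from its place in the count. INSR had the highest and IRS2 the highest level, as given above, and the median of the set was -0.03.

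**Figure D4:**
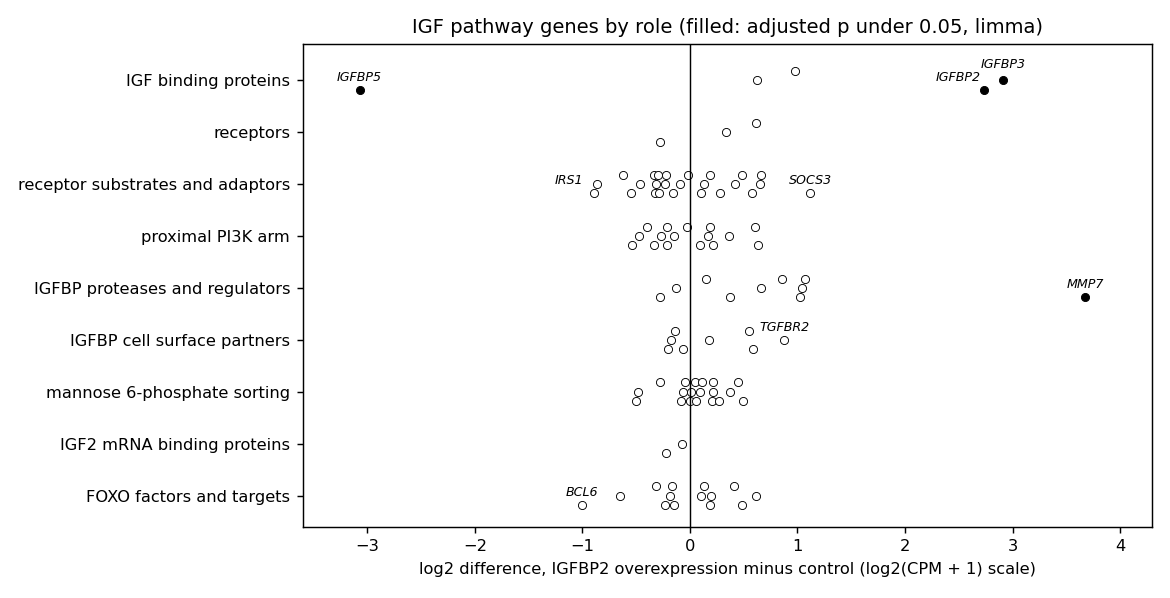
Log2 difference (overexpression minus control, log2(CPM + 1) scale) of every listed gene of the IGF pathway by role; each point is a gene, filled where limma's adjusted p was under 0.05, and small vertical offsets only keep points apart. The 4 filled points are IGFBP2, IGFBP3 and MMP7 on the right and IGFBP5 on the left.

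The genes whose levels followed IGFBP2 or IGFBP5 most closely were found by Pearson's r over the 6 libraries on the log2(CPM + 1) scale, among 8652 genes with a mean of at least 10 CPM. These r values come from libraries that fall into the same 2 groups and are given as a description. Nearest to IGFBP2 were GYS1 (r = 0.995), ELMOD3 (0.991), ZNF511 (0.982), VPS37B (0.976) and PFKP (0.975), and most opposite were NFIB (-0.994), SYK (-0.985), TRIOBP (-0.984), CRTC1 (-0.982) and GCAT (-0.980). Nearest to IGFBP5 were FDFT1 (0.994), APEH (0.984), RBM4 (0.984), SMU1 (0.982) and CAPRIN1 (0.980). None of the other 9 members of the family was among them, but IGFBP6, with a mean under 10 CPM, was not searched.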

How the data were processed

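Libraries from the 3′ end of transcripts covered 3 control and 3 overexpression replicates. The authors converted base calls with bcl2fastq, aligned trimmed reads to hg38 (GRCh38) with STAR, used HTSeq 0.9.1 for counts per gene and edgeR for normalization, and they deposited log2(CPM + 1) for genes over an average of 5 CPM in at least 1 condition. The RNA input was 100 ng in the labels and 125 ng in the study's methods.

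Limma (3.58.1, R 4.3.3) compared the groups on the deposited log2 scale over all 10487 genes, with no covariate, no mean-variance trend and Benjamini-Hochberg adjustment at 0.05. CPM were 2 to the power of the value less the pseudocount of 1. They were whole multiples of a step in each library (100% of values within 0.02), which gave whole reads for limma voom, shares and Wilson intervals (scipy 1.17.1). Of the identifiers, 10462 matched GENCODE 44. Fits were tested on simulated data.

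Members, lists and alternatives were chosen with earlier results of these data known. Named genes are the 10 members, and per list each called gene or else the highest and lowest log2 difference, plus the highest level. They also include the neighbours of IGFBP2 and IGFBP5 and the 5 highest (for IGFBP2 also the 5 lowest) correlations with them. Outside this rule, genes at an unadjusted p under 0.05 in a list are named after their values were seen. Alternatives covered the filter, pseudocount, scaling and variance model, a replicate block, and each library left out.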

Additional observations from a re-analysis of the deposited data

How the results depend on the processing

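IGFBP2 passed the threshold under all 15 alternatives, with log2 differences of 2.35 to 2.97 when a library was left out. IGFBP3 passed under 9 of 15. Its log2 difference was 2.92 with library size as the only scaling (adjusted p = 0.0529, limma) and 2.95 with a pseudocount of 0.1 (adjusted p = 0.0836), neither past the threshold, and 2.53 to 3.50 with a library left out. IGFBP5 passed under 11 of 15, with -3.63 to -2.63 when a library was left out. The other 7 genes passed under none. With a library left out, 1 to 3 of the 10 genes were called, and 1 remained, IGFBP2, without overexpression replicate 1 or 2 or control replicate 3. An average over 10 CPM gave no value for IGFBP6.

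Across all genes, 66 were called, and 141 with limma voom, 160 with a mean-variance trend, 37 with a pseudocount of 0.1 and 129 with a pseudocount of 5. With a library left out the count was 12 to 79, and it was 12 and 13 without overexpression replicates 1 and 2 and 17 without control replicate 3; fewer samples entered these fits. The difference of the IGFBP6 share, -0.564 percentage points, ranged from -1.06 to 0.239 with a library left out and turned without control replicate 2. That of the ratio of IGF1R to INSR, -0.453, ranged from -0.834 to 0.152 and turned without control replicate 3. The cause was not tested for the settings that kept all samples. No scaling moved the median of all genes by more than 0.0231 on the log2 scale.

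Same-numbered libraries deviated from their group means with correlations of 0.172, -0.0640 and 0.0842, so the numbers were not taken to pair the samples. A replicate block gave 55 called genes, of which 42 were shared with the 66, and changed no call among the 10 genes.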
